A study of Mus musculus with 8 samples.

Results

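The liver turns ammonia from amino acid breakdown into urea, and the genes of that route were examined here in whole liver of mice with a myeloid deletion of FoxO1. The set held 10 genes: the urea cycle enzymes and their mitochondrial carrier (Cps1, Otc, Ass1, Asl, Arg1, Nags and Slc25a15) and 3 enzymes that free nitrogen from amino acids in the periportal liver (Gls2, Hal and Sds). Members were chosen by name, through the gene symbols of GENCODE M21, out of 46517 genes in the count table. All 10 had enough counts to be tested, among 13278 genes that were. Male C57BL/6 mice, 6 weeks old at the start, ate a NASH diet during 25 weeks and were killed after a 16-hour fast. The WT group was 4 littermates with floxed FoxO1 alleles (FoxO1 loxP/loxP), and the MøFoxO1-KO group was 4 mice that had the same floxed alleles and Cre recombinase driven by the Lyz2 promoter (FoxO1 loxP/loxP-Lyz2-Cre). Lyz2 is active in myeloid cells throughout the body, so the deletion was not limited to the liver, and hepatocytes, in which the urea cycle operates, were not its target. Each library came from a separate mouse, and libraries are named WT22 to WT25 and KO26 to KO29. The sequenced material was the polyadenylated RNA of whole liver, so fewer cells of a type and less RNA per cell cannot be told apart.

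In the urea cycle, ammonia and bicarbonate are joined in the mitochondria by CPS1, which needs N-acetylglutamate made by NAGS. OTC passes the product to ornithine, which SLC25A15 carries into the mitochondria in exchange for citrulline. In the cytosol, ASS1 and ASL turn citrulline and aspartate into arginine and fumarate, and ARG1 splits arginine into urea and ornithine. GLS2 releases ammonia from glutamine, HAL from histidine and SDS from serine. These enzymes are most abundant in hepatocytes around the portal vein, and their genes are known to respond to fasting, glucagon, glucocorticoids and dietary protein.

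None of the 10 genes differed between MøFoxO1-KO and WT livers beyond the spread between mice. What stood out in their values was the spread itself: the members were high or low together from mouse to mouse, with up to 3.28-fold between the lowest and highest of 4 WT livers. WT23 and KO29 had high levels of most members, and WT24 had low levels. Within KO29 the members separated on TMM-normalized counts. Ass1, Asl, Gls2, Hal and Sds reached their highest level there and Otc its lowest of the MøFoxO1-KO group. On TPM, which carry no TMM scaling and are given below, WT23 was above KO29 for Ass1, Asl, Gls2 and Hal.

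Because the members moved together, the promoters of 3 of them are printed, 1 for each stage of the route. They are RefSeq sequences of GRCm38.p6, 5′ to 3′ on the gene's strand, from 250 bases before to 50 bases after the transcription start. Otc (chrX:10252055-10252354, plus strand) stands for the mitochondrial steps, Ass1 (chr2:31470020-31470319, plus strand) for the cytosolic steps and Hal (chr10:93488518-93488817, plus strand) for amino acid breakdown. Capitals mark a GC box (GGGCGG) in Ass1, and a CCAAT box (CCAAT) followed by a TATA motif (TATAAA on the opposite strand) in Hal.
Otc: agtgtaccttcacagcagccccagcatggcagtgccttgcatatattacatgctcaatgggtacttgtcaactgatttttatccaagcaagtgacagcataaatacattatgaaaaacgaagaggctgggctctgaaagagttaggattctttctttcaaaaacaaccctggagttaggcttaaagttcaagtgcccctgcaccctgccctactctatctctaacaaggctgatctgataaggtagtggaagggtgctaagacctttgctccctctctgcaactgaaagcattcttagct
Ass1: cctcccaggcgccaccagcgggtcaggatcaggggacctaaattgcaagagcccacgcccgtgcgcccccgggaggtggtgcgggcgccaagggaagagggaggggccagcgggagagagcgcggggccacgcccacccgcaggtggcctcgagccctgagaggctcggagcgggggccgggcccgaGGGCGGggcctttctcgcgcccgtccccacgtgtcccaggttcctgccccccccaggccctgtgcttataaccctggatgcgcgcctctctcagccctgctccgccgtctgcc
Hal: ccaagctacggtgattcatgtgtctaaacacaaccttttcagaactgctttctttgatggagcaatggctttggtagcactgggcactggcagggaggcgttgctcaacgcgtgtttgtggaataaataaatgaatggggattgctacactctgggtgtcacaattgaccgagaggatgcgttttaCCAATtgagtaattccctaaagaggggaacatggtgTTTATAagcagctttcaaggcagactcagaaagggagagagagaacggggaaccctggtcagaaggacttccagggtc
The Ass1 window was 74.0% G and C, against 44.3% in Otc, 47.7% in Hal and a median of 52.7% over all windows. RefSeq windows were at hand for 5 members, with 6 windows in all: Otc, Ass1, Nags, Hal and Slc25a15, the last with 2 starts. The others, Cps1, Asl, Arg1, Gls2 and Sds, are named only. Both strands were searched for 7 motifs. The FOXO motif TGTTTAC was in none of the 6 windows and in 3.65% of all 32851 windows. Likewise, the cyclic AMP response element TGACGTCA was in none (1.79% of all windows), nor was the C/EBP motif TTGCGCAA (0.183%) or the HNF4A motif CAAAGTCCA (0.475%). The TATA motif was in 1 window, that of Hal with its first base at -28, and in 13.6% of all windows. GC boxes were in 4 windows, those of Ass1, Nags and Slc25a15 (35.7% of all windows), and the CCAAT box was in 1, that of Hal at -64 (37.4%). GC and CCAAT boxes were added to the search after the data were seen. None of the 7 motifs was in more than 1 of the 3 printed windows.

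Total counts per library lay between 15253218 and 18025481. Foxo1 had 328 to 467 counts in WT livers and 253 to 448 in MøFoxO1-KO livers, and it did not differ between groups (log2 ratio -0.17, edgeR, Benjamini-Hochberg adjusted P = 0.686). Whole liver therefore gave no check of a deletion that the Lyz2-Cre design places in myeloid cells. Hepatocyte markers, 6 genes tested, were abundant in every library and summed to between 1013400 and 1794800 normalized counts. Of the 6, 4 had a higher and 2 a lower level in MøFoxO1-KO livers. Serpina1c, a protease inhibitor from a family of near-identical genes that may share reads, was higher (log2 ratio 1.49, edgeR, Benjamini-Hochberg adjusted P = 0.037). The groups also did not overlap for Apoa1 (1.07, adjusted P = 0.0765). The lower genes were Hnf4a (-0.32, adjusted P = 0.312 in the same test) and Apob (-0.22, adjusted P = 0.601). The part of these markers in the members' values was not tested. At their medians, markers of cell types other than hepatocytes were low in WT23, most of all those of endothelium and B cells. Of 5 markers of sinusoidal endothelium, 5 were lowest of the WT group in WT23, with a median deviation from the gene's own mean of -1.48 on the log2 scale, as were 4 of 4 B cell markers (-2.08). Macrophage markers were low in WT23 (-0.69, with 6 of 8 lowest of the WT group) and also in KO28 (-0.73). In WT23 the median deviation was also below 0 for markers of neutrophils (-0.84), cholangiocytes (-0.73) and T and NK cells (-0.68). The same held for stellate cells (-0.42) and red cells (-0.33), while that of hepatocyte markers was -0.01. The part of these cell type markers in the results below was not tested. Normalized counts are the counts of a mouse scaled by edgeR's TMM factors to the mean library size.

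Among the mitochondrial steps, Cps1 had the widest range of all members within WT livers. Cps1 (chr1:67123026-67231259, plus strand, ENSMUSG00000025991) encodes carbamoyl phosphate synthetase, the entry enzyme of the cycle. Normalized Cps1 counts were 10294, 33738, 15129 and 19343 in WT22, WT23, WT24 and WT25, and 22827, 18981, 13027 and 24429 in KO26, KO27, KO28 and KO29. WT23 was above all other livers and WT22 below them, so the MøFoxO1-KO group lay inside the WT range. Group means were 19626 ± 10108 (SD, n = 4) for WT mice and 19816 ± 5071 (SD, n = 4) for the others. The log2 ratio of MøFoxO1-KO to WT, the log2 fold change of edgeR, was 0.01 (SE 0.34), at an edgeR adjusted P of 0.989 (Benjamini-Hochberg). Its 95% interval ran from 0.602-fold to 1.69-fold, so a change of moderate size in either direction was not excluded with these mice.

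Otc (chrX:10252305-10321024, plus strand, ENSMUSG00000031173), which encodes ornithine transcarbamylase, shared its highest WT liver with Cps1 and parted from it in KO29. Normalized Otc counts were 5725, 8241, 3822 and 5883 in WT22 to WT25, and 7204, 5921, 5622 and 5156 in KO26 to KO29. The highest and the lowest of the 8 livers were both WT, and KO29 was the lowest of the MøFoxO1-KO group. The log2 ratio was 0.01 (SE 0.22, 95% interval -0.46 to 0.49), at an edgeR adjusted P of 0.982 (Benjamini-Hochberg). Nags (chr11:102145513-102149477, plus strand, ENSMUSG00000048217), whose product makes the activator of CPS1, was the least variable member. Its normalized counts were 954, 1287, 871 and 1233 in WT22 to WT25, and 1377, 1076, 1089 and 1085 in KO26 to KO29. KO26 was above every other liver, and the remaining 3 MøFoxO1-KO livers were within the WT range. The Nags log2 ratio was 0.09 (SE 0.15), at an edgeR adjusted P of 0.807 (Benjamini-Hochberg). Slc25a15 (chr8:22375554-22398621, minus strand, ENSMUSG00000031482), the ornithine and citrulline carrier, had 2128 to 3753 normalized counts in WT and 2307 to 3572 in the livers of MøFoxO1-KO mice. The log2 ratio was 0.12 (SE 0.20), at an edgeR adjusted P of 0.801 (Benjamini-Hochberg).

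**Figure D1:**
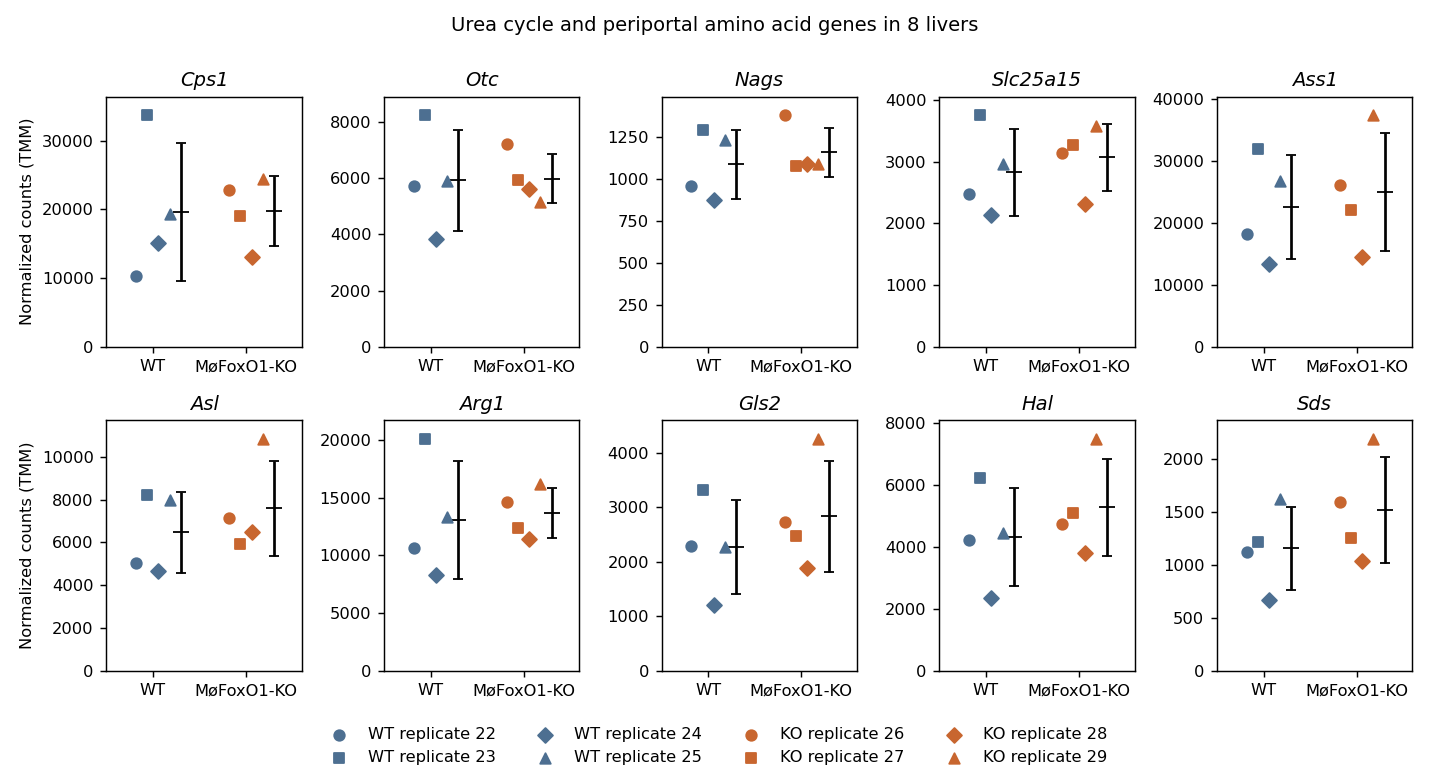
TMM-normalized counts (y axis, from 0) of the 10 genes in each of 4 WT (blue) and 4 MøFoxO1-KO (orange) livers. Each symbol is 1 mouse, the bar beside each group is its mean ± SD, and the groups overlap for every gene, with WT23 (blue square) highest of the WT livers for 9 genes and WT24 (blue diamond) lowest for 9.

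The cytosolic enzymes showed no difference beyond the spread between mice either, and KO29 was the highest of the 8 livers for Ass1 and Asl. Ass1 (chr2:31470207-31520672, plus strand, ENSMUSG00000076441), which encodes argininosuccinate synthetase, had normalized counts of 18252, 31997, 13398 and 26860 in WT22 to WT25, and 26101, 22067, 14576 and 37435 in KO26 to KO29. WT24 was the lowest of the 8 livers, and the range spanned 2.39-fold within WT and 2.57-fold within MøFoxO1-KO mice. The log2 ratio was 0.15 (SE 0.32, 95% interval -0.57 to 0.86), at an edgeR adjusted P of 0.856 (Benjamini-Hochberg). Ass1 counts have a limit of their own, because 43.1% of the 31-base stretches of its transcripts also occur in Gm5424, a gene on chromosome 10 that held 64 to 181 counts per library, at most 0.565% of the Ass1 counts. How reads that match both were counted is not given in the sources used here. Asl (chr5:130011258-130029247, minus strand, ENSMUSG00000025533), which encodes argininosuccinate lyase, had 4650 to 8212 normalized counts in WT and 5921 to 10848 in MøFoxO1-KO livers, with KO29 again the highest of the 8. The log2 ratio was 0.23 (SE 0.25), at an edgeR adjusted P of 0.681 (Benjamini-Hochberg).

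Arg1 (chr10:24915208-24927470, minus strand, ENSMUSG00000019987) encodes the arginase of the urea cycle in hepatocytes and is also made by alternatively activated macrophages. Normalized Arg1 counts were 10631, 20126, 8307 and 13353 in WT22 to WT25, and 14669, 12373, 11423 and 16201 in KO26 to KO29. WT livers lay on both sides of all 4 MøFoxO1-KO livers. The Arg1 log2 ratio was 0.06 (SE 0.25), which gave a 95% interval of 0.707-fold to 1.54-fold (edgeR, Benjamini-Hochberg adjusted P = 0.929). By a different assay, qRT-PCR, the paper reports significantly higher liver Arg1 in MøFoxO1-KO than in WT mice on this diet. Macrophage markers, of which none was at 0 in any library, summed to 2899 to 4977 normalized counts in WT and 3141 to 14102 in MøFoxO1-KO livers. The mean was higher in the latter for 7 of 8, all but Lyz2. At an unadjusted edgeR P under 0.05 were 4 of the 8 (Marco, Cd5l, Adgre1 and Vsig4), beside 16.7% of all genes, and none passed the adjusted P limit. Marco had the largest log2 ratio (5.18, edgeR, Benjamini-Hochberg adjusted P = 0.087), with 4.92 to 81.2 normalized counts in WT and 66.4 to 2712 in MøFoxO1-KO livers. Arg1 was highest in WT23, the library with the smallest macrophage sum, and within the MøFoxO1-KO group it was highest in KO29, the library with the largest. Arg2, the mitochondrial arginase, had 0 to 4 counts per library and was not tested.

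The 3 enzymes that release ammonia from amino acids had the largest log2 ratios of the members, all within the spread between mice, but this order rested on KO29. Without KO29 their log2 ratios were 0.05 (Gls2), 0.07 (Hal) and 0.16 (Sds), beside 0.12 for Nags and 0.08 for Otc. Sds (chr5:120476526-120483932, plus strand, ENSMUSG00000029597), the serine dehydratase that rises in liver with fasting, had the smallest P of the 10. Its normalized counts were 1123, 1217, 663 and 1621 in WT22 to WT25, and 1592, 1249, 1034 and 2189 in KO26 to KO29. WT25, and not WT23, was the highest WT liver for Sds, and KO29 the highest of all. Means were 1156 ± 393 (SD, n = 4) and 1516 ± 504 (SD, n = 4), and the log2 ratio was 0.39 (SE 0.29, 95% interval -0.24 to 1.03), at an edgeR adjusted P of 0.533 (Benjamini-Hochberg). Hal (chr10:93488768-93519304, plus strand, ENSMUSG00000020017), the histidine ammonia lyase, had 4229, 6217, 2356 and 4449 normalized counts in WT22 to WT25, and 4718, 5101, 3789 and 7479 in KO26 to KO29. As for Sds, WT24 was the lowest and KO29 the highest of the 8 livers. Its log2 ratio was 0.29 (SE 0.29), at an edgeR adjusted P of 0.656 (Benjamini-Hochberg). Gls2 (chr10:128194457-128210004, plus strand, ENSMUSG00000044005), the liver glutaminase, had 1203 to 3311 normalized counts in WT and 1879 to 4255 in MøFoxO1-KO livers, with the same lowest and highest livers. Its log2 ratio was 0.32 (SE 0.31), at an edgeR adjusted P of 0.648 (Benjamini-Hochberg). Exons of 3 members overlap genes of the opposite strand, and the strand setting of the counting is not given in the sources used here. The overlap was 501 bases for Sds, with Plbd2 and Gm15690, 443 bases for Nags, with Gm11586, and 97 bases for Gls2, with Spryd4. Plbd2 had 1338 to 1994 counts per library, up to 228% of the Sds counts, so part of the Sds counts cannot be told apart from Plbd2 if strand was not used.

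Of the 10 members, 0 were called at the study's limits (an adjusted P below 0.05 with a log2 ratio beyond 1.5 in either direction), against 25 of all 13278 genes (0.188%). At the adjusted P alone, 0 members and 39 genes (0.294%) passed. At an unadjusted P under 0.05, 0 members passed and 2219 genes did (16.7%), and the smallest unadjusted member P was 0.201 (edgeR, Sds). Groups did not overlap for 0 members and for 1289 genes (9.71%), and exact two-sided permutation tests of the normalized counts gave P between 0.343 and 1, where 4 mice against 4 allow none under 0.0286. All 10 log2 fold changes were above 0, as were 48.3% of all genes, but 5 of the 10 (Cps1, Otc, Nags, Slc25a15 and Arg1) were below 0 when libraries were scaled by their totals without TMM, which moved the median of all genes to -0.17 and that of the members to -0.01. The median of the members was 0.13 with TMM, beside -0.01 over all genes. It was 0.36 without WT23, 0.00045 without WT24, 0.05 without KO29, 0.06 without WT22 and 0.28 without KO28, so the size of the group difference rested on single mice. Without WT23 the log2 fold changes lay between 0.18 (Nags) and 0.56 (Gls2), and the smallest adjusted P was 0.464 (edgeR, Benjamini-Hochberg). Without WT24 they lay between -0.15 (Otc) and 0.20 (Sds), and without KO29 between -0.11 (Ass1) and 0.16 (Sds), with Asl at 0.0099.

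**Figure D2:**
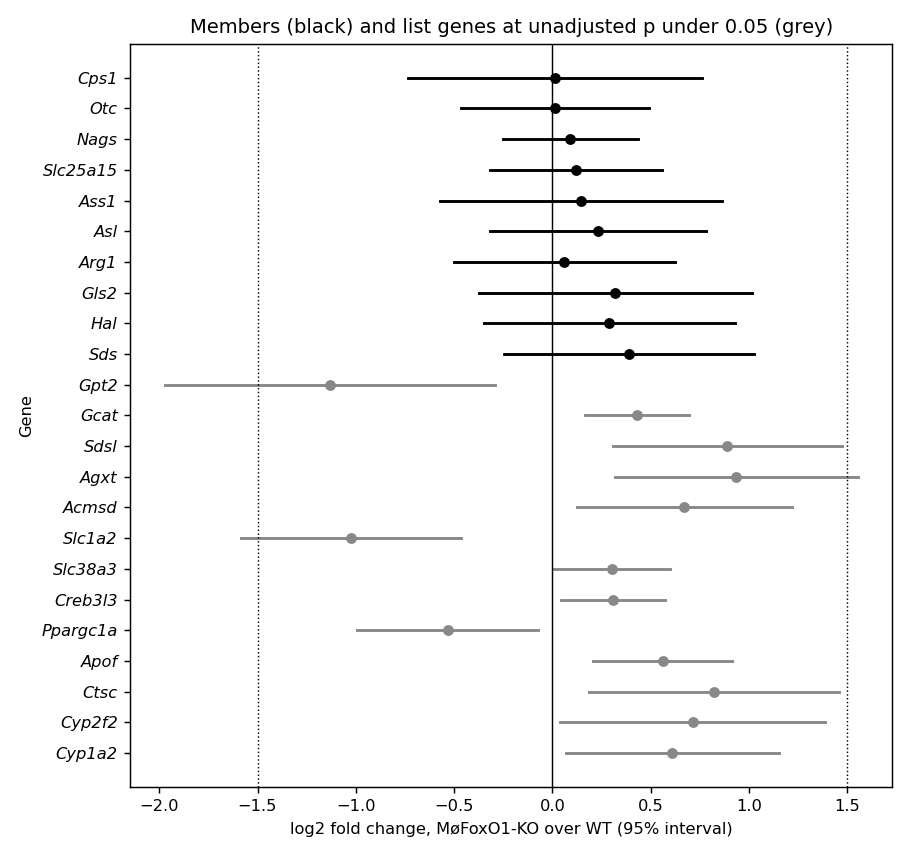
Log2 fold change, MøFoxO1-KO over WT (x axis, edgeR point estimate with 95% interval), for the 10 members (black) and, in grey, the genes of related lists named for an unadjusted P under 0.05. All 10 black intervals cross 0, and dotted lines mark the limits of the study at 1.5 on either side.

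Levels between genes were compared as TPM, counts divided by exon length and scaled to the same sum in each library. TPM carry no TMM scaling, and on that scale the mean was lower in MøFoxO1-KO livers for 8 of the 10 members. The order of single livers also depended on the scaling, with TMM factors of 1.15 in WT24, 1.01 in KO28, 0.992 in WT23 and 0.936 in KO29. By TPM, Ass1 was highest in WT23 (1757, beside 1530 in KO29) and lowest in KO28 (675, beside 768 in WT24). WT24 was also not the lowest of the 8 livers by TPM for Otc, Nags, Slc25a15 and Asl. Averaged over all 8 livers, the cytosolic enzymes Ass1 (1134 ± 384 TPM, SD, n = 8) and Arg1 (1052 ± 331) were the highest, with ranges that overlapped almost fully. Cps1 followed at 413 ± 177 TPM, and its highest liver (805 in WT23) lay inside the ranges of both. Asl (167 ± 42.3 TPM) and Otc (163 ± 44.5) did not differ beyond their spread, and their lowest livers (118 and 120 TPM) lay below the highest of Slc25a15 (144). Slc25a15 (98.7 ± 20.6 TPM), Hal (98.7 ± 29.03), Sds (89.6 ± 25.0) and Gls2 (83.8 ± 27.5) formed a group with overlapping ranges. Nags, which makes a cofactor and no bulk metabolite, was the lowest at 45.9 ± 8.30 TPM, and its highest liver (60.1) lay inside the range of Gls2. In sum the members held 2423 to 5425 TPM and 0.369 to 0.713% of all counts of a library, with the highest values of both in WT23.

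**Figure D3:**
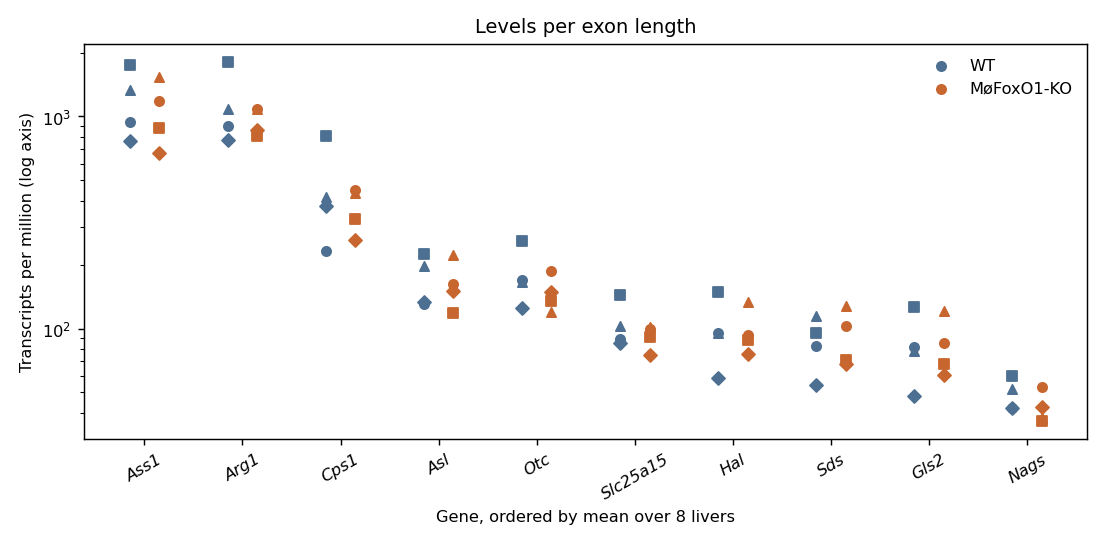
TPM (y axis, log scale) of the 10 members in 4 WT (blue) and 4 MøFoxO1-KO (orange) livers, ordered by the mean over 8 livers. Each symbol is 1 mouse, with shapes as in the plot of normalized counts, and Ass1 and Arg1 sit highest and Nags lowest.

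The paralogs examined were less abundant than their partners in these livers. Arg2 had at most 0.358 TPM against at least 779 for Arg1, and Slc25a2, another ornithine carrier, at most 1.04 TPM against at least 74.7 for Slc25a15. Sdsl, a relative of Sds, was the closest to its partner, with 11.3 to 29.9 TPM against 54.1 to 127. The aspartate and glutamate carrier of liver, Slc25a13, had 82.6 to 155 TPM and its paralog Slc25a12 1.78 to 4.17.

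At their median, the members varied more between mice of the same genotype than most genes, but Nags (0.23) was below the median of all genes tested. Their SD within genotype was 0.23 to 0.58 on the log2 scale with a median of 0.46, beside a median of 0.28 over all genes tested and 0.20 over 3817 genes with at least 500 normalized counts on average. The ratio of highest to lowest liver was 1.48 (Nags) to 3.28 (Cps1) within WT and 1.28 (Nags) to 2.57 (Ass1) within MøFoxO1-KO mice. WT23 was the highest WT liver for 9 members and for 35.5% of all genes, the exception among members being Sds. WT24 was the lowest for 9 members and for 25.1% of all genes, the exception being Cps1. In the MøFoxO1-KO group KO29 was the highest for 8 members and for 25.6% of all genes, and KO28 the lowest for 7 members and for 26.2% of all genes. These libraries were singled out after their values were seen, so the counts are a description. The median deviation of the 10 members from their own means was 0.45 in WT23, -0.62 in WT24 and 0.54 in KO29 on the log2 scale, and it lay between -0.28 and 0.20 in the other 5 livers. KO29 also had the highest level of 7 of 8 macrophage markers within its group, and WT23 the lowest endothelial markers. The part of either in the members' levels was not tested.

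**Figure D4:**
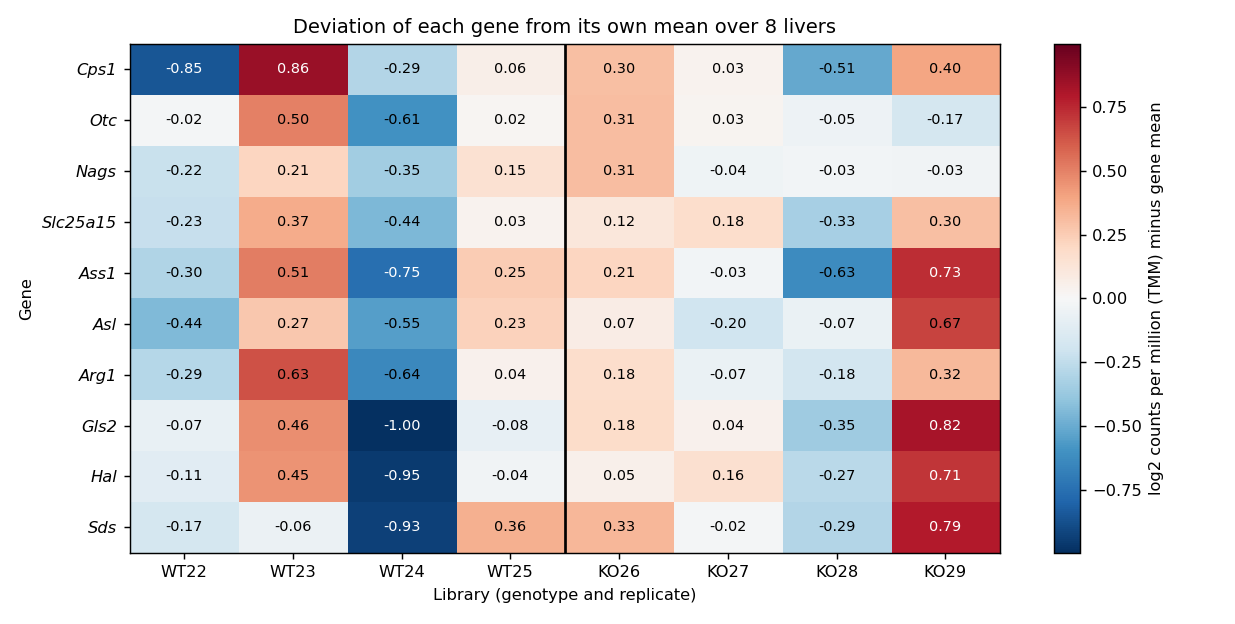
Deviation of each member from its own mean over 8 livers (colour and printed value, log2 CPM after TMM scaling), with genes in rows and libraries in columns, WT to the left of the line. Columns are mostly of 1 colour, red in WT23 and KO29 and blue in WT24, with Otc and Nags in KO29 (-0.17 and -0.03) and Sds in WT23 (-0.06) as exceptions.

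The stages of the route deviated to different degrees. In WT24 the median deviation was -0.95 for the 3 ammonia-releasing enzymes, -0.64 for the cytosolic enzymes and -0.40 for the mitochondrial members. In KO29 the order was the same with the opposite sign, at 0.79, 0.67 and 0.13. In WT23 the 3 stages were close, at 0.45, 0.51 and 0.44. The ratio of Ass1 to Otc in TPM was 12.8 in KO29 and between 4.55 and 8.02 in the other 7 livers, although its group means of 6.65 ± 1.04 (SD, n = 4) for WT and 7.56 ± 3.58 (SD, n = 4) for MøFoxO1-KO mice were close. This ratio was chosen after the values were seen. By contrast, Hal and Gls2 kept nearly the same ratio, between 1.09 and 1.29 in all 8 livers, while each of them was lowest in WT24 and highest in WT23 on that scale. Cps1 to Otc ranged from 1.37 in WT22 to 3.62 in KO29.

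Likeness of pattern was measured as the root mean square difference of centred log2 CPM over the 8 libraries. For Cps1 the nearest of all tested genes were Leo1 (0.21), Gm37336 (0.21) and Fmnl2 (0.22), and the nearest member was Arg1 at rank 28 (0.28). For Sds they were Fam84a (0.18), Dpyd (0.19) and Leap2 (0.20), with the members Asl, Gls2, Ass1 and Hal at ranks 8, 9, 10 and 13. Leap2 encodes a peptide of liver and gut that opposes ghrelin, and Dpyd the enzyme that starts pyrimidine breakdown. Cps1 was at rank 3700 from Sds among the 13278 genes tested, the farthest of the members. This measure counts the size of deviations as well as their direction. Gm37336 and Fam84a had few reads, at 22.3 and 46.0 normalized counts on average.

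Genes related to the cycle were also examined as lists chosen by function. Each was read against 16.7% of all genes with an unadjusted P under 0.05 and 9.71% without overlap of the groups. No gene of these lists passed the adjusted P limit in edgeR. DESeq2 was read only for 15 genes outside the set, which were Foxo1 and genes picked by the naming rule. On the same filtered genes it placed 6 of these 15 under the limit (Gpt2, Agxt, Gcat, Sdsl, Slc1a2 and Apof). Most of the 15 had been picked for a low edgeR P in these same libraries, so that count is no separate support. The share of all genes under that limit in DESeq2 is not given here. The supply list covered aspartate, glutamate, ornithine and bicarbonate, but also held Agmat, Odc1 and Sirt5, which do not supply these to the cycle. Agmat (log2 ratio 0.40), Odc1 (0.06) and Sirt5 (0.0059) were all among its higher genes. Of its 15 tested genes, 4 had a higher and 11 a lower mean after deletion (median log2 ratio -0.06), and 1 had an unadjusted P under 0.05. That gene was Gpt2, the mitochondrial alanine transaminase, with 6655, 15496, 5729 and 6168 normalized counts in WT22 to WT25, and 5608, 2439, 4820 and 2664 in KO26 to KO29. Every MøFoxO1-KO liver was below every WT liver, by a narrow margin (5608 against 5729), and the log2 ratio was -1.13 (SE 0.38), at an edgeR adjusted P of 0.195 (Benjamini-Hochberg). It was -0.67 without WT23 (adjusted P = 0.357 in the same test) and -0.51 with 1 surrogate variable.

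Of 39 tested genes of amino acid breakdown, 23 were higher and 16 lower with a median of 0.08, and 5 of the higher and 1 of the lower had an unadjusted P under 0.05. Agxt, which moves nitrogen from alanine to glyoxylate in peroxisomes, had 1440 to 2987 normalized counts in WT and 3013 to 6689 in MøFoxO1-KO livers, for a log2 ratio of 0.94 (SE 0.28, edgeR, Benjamini-Hochberg adjusted P = 0.162). Gcat, of threonine and glycine metabolism, had 750 to 979 and 1051 to 1292 (log2 fold change 0.43, adjusted P = 0.144 in the same test). Acmsd, which diverts tryptophan breakdown away from NAD synthesis, had 41.2 to 63.7 and 67.4 to 116 (0.67, adjusted P = 0.223). The groups did not overlap for these 3 genes, by a narrow margin for Agxt (2987 against 3013), nor for 2 more of the 39, Fah (0.25, adjusted P = 0.421) and Bckdha (0.21, adjusted P = 0.420), which were named after their values were seen. Sdsl had 122 to 206 and 196 to 453 normalized counts with overlap (0.89, adjusted P = 0.161). Outside the naming rule, Prodh2 (0.40, adjusted P = 0.288) and Bckdhb, the lower gene (-0.43, adjusted P = 0.226), made up the 6. WT24 was the lowest WT liver for 33 of the 39 genes, beside 25.1% of all genes, so its low level was shared with amino acid breakdown outside the set.

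Of 13 tested genes of amino acid, ammonia and urea transport, 8 were higher and 5 lower. Slc1a2, a glutamate transporter of the pericentral liver, had 2507, 2395, 2175 and 4898 normalized counts in WT22 to WT25, and 1495, 1332, 1746 and 1310 in KO26 to KO29. All 4 MøFoxO1-KO livers were below the WT livers, at a log2 ratio of -1.03 (SE 0.25, edgeR, Benjamini-Hochberg adjusted P = 0.12). Without WT25, the highest of them, it was -0.68. Slc38a3, the glutamine carrier SNAT3, had a log2 ratio of 0.30 with overlapping groups (edgeR, Benjamini-Hochberg adjusted P = 0.284). Among 17 genes of the hormone response and transcription factors that act on the cycle, 4 were higher and 13 lower, with a median of -0.10. Creb3l3, a fasting-responsive factor of the endoplasmic reticulum, had 4994 to 5731 normalized counts in WT and 6235 to 7497 in MøFoxO1-KO livers (log2 ratio 0.31, edgeR, Benjamini-Hochberg adjusted P = 0.237). Ppargc1a, a coactivator of the fasting response, had 108 to 168 and 84.0 to 119 (log2 fold change -0.53, adjusted P = 0.243 in the same test).

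Zonation was examined with other genes of either end of the lobule. Of 8 other periportal markers, 3 were higher and 5 lower with a median of -0.07, and of 11 pericentral markers, 5 were higher and 6 lower with a median of -0.04. Periportal genes with an unadjusted P under 0.05 were those of apolipoprotein F (Apof, 0.56, adjusted P = 0.148), of the lysosomal protease cathepsin C (Ctsc, 0.82, adjusted P = 0.209) and of Cyp2f2 (0.71, adjusted P = 0.274), as log2 fold changes from edgeR with Benjamini-Hochberg adjustment. Ctsc had 2303 normalized counts in KO29, the library with the highest macrophage markers, and 797 to 1450 in the other MøFoxO1-KO livers, and without KO29 its log2 ratio was 0.47. Cyp2f2, a cytochrome of periportal hepatocytes, had 5792, 13793, 5501 and 5383 normalized counts in WT22 to WT25 and 10859 to 15111 in MøFoxO1-KO livers. WT23 alone of the WT livers was in the range of the MøFoxO1-KO group, so leaving it out had to widen the difference. The log2 ratio was 1.17 without WT23 (edgeR, Benjamini-Hochberg adjusted P = 0.0257) and 0.58 to 0.60 with each other WT liver left out in turn (adjusted P 0.402 to 0.439). The pericentral genes with such a P were Slc1a2, given above, and Cyp1a2, which had 6072 to 14009 and 13469 to 18344 normalized counts (log2 fold change 0.61, adjusted P = 0.250, and 0.42 without WT23). Glul, the glutamine synthetase that takes up ammonia left by the urea cycle, had 20558 to 24686 normalized counts in WT and 14887 to 29756 in MøFoxO1-KO livers, a log2 ratio of -0.04 (edgeR, Benjamini-Hochberg adjusted P = 0.941). In WT23, WT24 and KO29, where members deviated most, the median deviation of the pericentral markers was 0.11, -0.23 and -0.16.

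**Figure D5:**
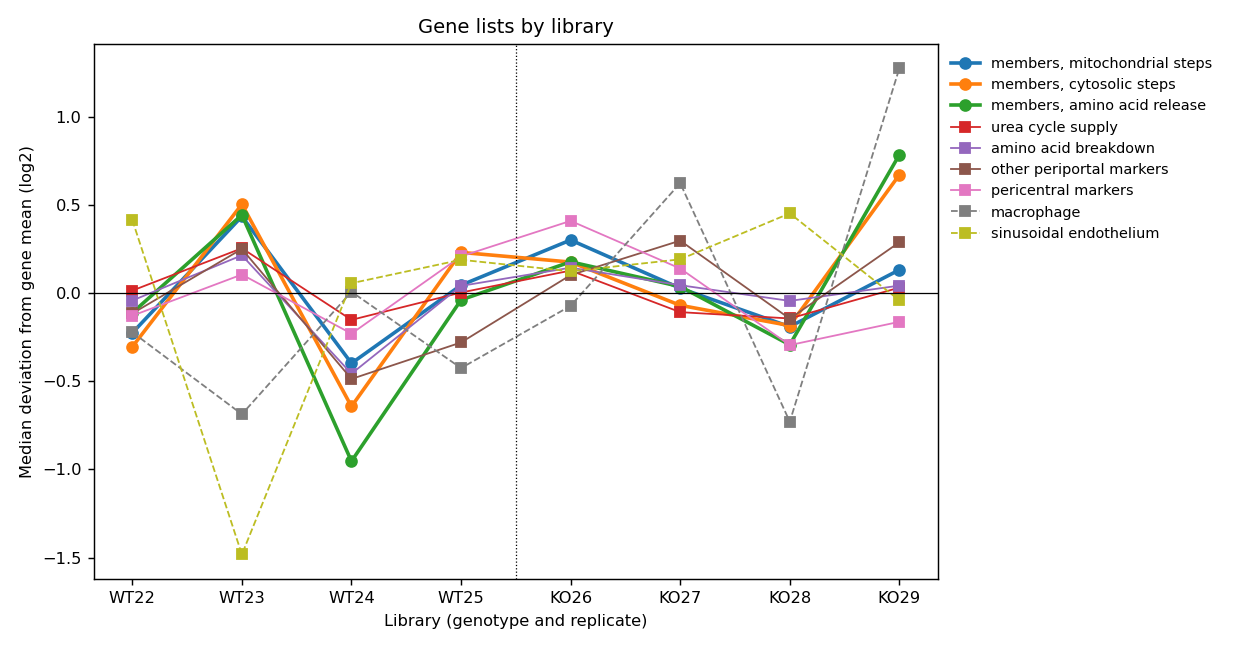
Median deviation of each gene list from its genes' own means (y axis, log2) in the 8 libraries (x axis), for the 3 stages of the members (thick lines), related lists (thin lines) and macrophage and endothelial markers (dashed). The 3 member lines lie above the related lists in WT23, those of the cytosolic and ammonia-releasing members lie below them in WT24, the endothelial line falls to -1.48 in WT23 and the macrophage line reaches 1.28 in KO29.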

How the data were processed

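Liver RNA of 4 MøFoxO1-KO and 4 WT mice was examined. The authors deposited 1 table of raw read counts per gene, in the layout of featureCounts with mm10 coordinates, without normalization and without pooling. STAR and featureCounts are named in the submitters' processing notes. Their versions, the strand setting and the treatment of multi-mapping reads are not given in the sources used here. All sample columns were used.

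Counts were filtered with filterByExpr (minimum count 10, minimum total 15), scaled by TMM and compared by edgeR 4.0.16 (quasi-likelihood test, R 4.3.3) with Benjamini-Hochberg adjustment. Intervals are at 95%. TPM were computed from counts and exon lengths. The common biological coefficient of variation was 0.256. Alternatives used DESeq2 1.42.0, limma 3.58.1 (voom), sva 3.50.0, other scaling factors or filters, an offset for GC content and length, and each mouse left out. The methods were tested on simulated data. Permutation tests used scipy 1.17.1. RefSeq promoters (GRCm38.p6) were matched by symbol.

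The members and lists were chosen with earlier results of these data known. Named genes were all members, Foxo1, paralog pairs (1 gene of which is not reported here), the 3 genes nearest in pattern to Cps1 and to Sds, and, of each pathway list, genes at an adjusted P under 0.05 plus up to 4 with the lowest unadjusted P under 0.05. Glul and genes of marker lists were named after their values were seen. Where P values are given, they set the difference between groups against the spread between mice of a group.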

Additional observations from a re-analysis of the deposited data

Results flagged for a closer look

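Normalized counts of 25 genes named in the text were examined in groups of 4 mice, 50 groups in all, for a mouse far from the other 3 by Dixon's 95% limit. Chance gives about 1 such group in 20, and 5 of the 50 were found. Among the members, Nags in KO26 stood at 1377 normalized counts, above the other 3 MøFoxO1-KO livers. Among the related genes, WT23 stood high for Gpt2 (15496 normalized counts) and for Cyp2f2 (13793). WT25 stood high for Slc1a2 (4898), and KO27 for Creb3l3 (7497).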

How the results depend on the processing

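No paired analysis was made, because the sample labels do not say which mice of the groups shared a litter. Over 19 alternatives, 2 of them (library totals without TMM, and DESeq2 on the genes that passed the filter) chosen after seeing the data, no member was called, and the smallest adjusted P of any member was 0.339 (edgeR, Benjamini-Hochberg, Sds without WT25). In 22 of 190 member values the sign turned. These were Cps1 (-0.13), Otc (-0.12), Nags (-0.0524), Slc25a15 (-0.028) and Arg1 (-0.0736) with library totals, Cps1 (-0.00417) and Otc (-0.00179) without the filter on low counts, and Arg1 (-0.088) with the offset for GC content and length. With 1 mouse left out, Cps1 ranged from -0.20 to 0.41, Otc from -0.15 to 0.22, Nags from -0.00569 to 0.18, Ass1 from -0.11 to 0.36 and Arg1 from -0.11 to 0.34. Foxo1 turned to 0.0126 with 1 surrogate variable. Slc25a12 turned to 0.031 with 1 surrogate variable and 0.0217 with the offset, and ranged from -0.24 to 0.0551 with 1 mouse left out. The cause was not tested. Of all genes, 25 were called by edgeR, 176 with DESeq2 without the filter (23665 genes), 144 with DESeq2 on the 13278 filtered genes, 39 at the adjusted P alone, 13 with limma-voom, 120 with edgeR without the filter, and 3 (without WT25) to 82 (without KO28) with 1 mouse left out. With 1 surrogate variable, 1 member (Otc, 0.35) had an unadjusted P under 0.05 and the median of the other periportal markers was 0.44. On the filtered genes DESeq2 placed Agxt (adjusted P = 0.0263), Apof (0.0209), Gcat (0.0359), Gpt2 (0.0426), Sdsl (0.0406) and Slc1a2 (0.00503) under 0.05, as it did without the filter, and edgeR did so for Slc1a2 without the filter (0.0348), Apof without KO28 (0.0387) and Cyp2f2 without WT23. With 4 mice a group and a spread as wide as that of Cps1, changes inside the printed intervals were not excluded.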
